A study of Bos taurus with 28 samples.

Results

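The liver of ovariectomized cows that received no hormone was described from 7 of the 28 arrays of the series, those of the control group (CO). The rule took the 24016 probe sets that were not array controls, kept for each gene symbol the probe set with the highest mean log2 signal over the 7 CO arrays, and ranked the resulting 9155 genes by that mean. All animals were dry, non-lactating Holstein cows without ovaries, and each treatment lasted 14 days. CO cows had no hormone source, E2T cows carried an ear implant that released estradiol, P4T cows received progesterone from an intravaginal device (the P4T labels call this exposure intradermal), and E2P4T cows received both, with 7 arrays in each group. The design was a replicated Latin square in which a cow passed through several treatments. The labels give neither cow nor period, so p-values treat arrays as independent and measure only the spread between them. Each array held the mRNA of a percutaneous biopsy, that is, of all the cell types of liver tissue together.

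Hepatocytes make most of the proteins of blood plasma, among them albumin, the carriers of iron, lipid and vitamins, the clotting factors, the protease inhibitors and the complement proteins. They also hold the urea cycle, gluconeogenesis, fatty acid oxidation and the enzymes that oxidise and conjugate drugs and steroids. In ruminants the liver makes glucose largely from propionate and responds to inflammation with the acute phase proteins, of which haptoglobin and serum amyloid A are the best known in cattle.

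The signals were scaled by array to a common trimmed mean, which was recomputed as 1000.2 to 1000.4 on all arrays. A signal depends on how well each probe set binds its target as well as on the mRNA, so the ranking is one of signal and not of the number of mRNA molecules. The number of arrays limits the precision. Over the 4000 highest genes, pairs of CO arrays correlated at r = 0.778 to 0.956, and at 0.836 or more once CO 3 was set aside. CO 3 stood apart in the spiked hybridization controls too, with a mean log2 signal of 16.26 against 14.11 to 14.43 on the other CO arrays. It gave the highest signal of the 7 arrays for 27.9% of all ranked genes and the lowest for 18.8%. Among the 4000 highest genes the order turned, with CO 3 highest for 21.2% and lowest for 27.2%. The main results that rest on it are therefore given also without it, and the part that the array itself plays was not tested.

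The highest ranks belonged to secreted plasma proteins. Complement C3 (C3), the central component of complement, ranked first with a log2 signal of 17.56 ± 0.61 (mean ± SD, n = 7 for all CO values). Albumin (ALB), the main protein of plasma, followed with 17.55 ± 0.50, and transferrin (TF), which carries iron, with 17.47 ± 0.44. These 3 means differed by less than the spread between arrays, so their order was not resolved.

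C3 lay between 17.25 and 17.44 on 6 arrays and at 18.93 on CO 3. ALB lay between 17.17 and 17.50 on the same 6 arrays and at 18.66 on CO 3, and TF between 17.08 and 17.47 and at 18.42. The spread of all 3 genes was thus mostly 1 array. Another probe set of C3 had a mean of 17.14 ± 0.22 with 17.61 on CO 3, and another of ALB a mean of 17.53 ± 0.31 with 18.16 on CO 3, so that CO 3 was the highest there as well, by a smaller distance. A further probe set of ALB at a lower level, with a mean of 12.46, was lowest on CO 3, at 11.47 against 12.12 to 12.89.

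Ranks 4 to 10 fell between 16.94 and 17.14. The fibrinogen gamma chain (FGG), a subunit of the clot-forming protein, had 17.14 ± 0.10, and complement factor B (CFB), a protease of the alternative pathway, had 17.13 ± 0.08. These were among the steadiest values of the whole ranking, at 17.03 to 17.30 and 17.04 to 17.25 over the 7 arrays. AKR1C4, an aldo-keto reductase that acts on steroids, had 17.02 ± 0.38, apolipoprotein A-II (APOA2), of high density lipoprotein, 17.02 ± 0.17, and vitronectin (VTN), an adhesion protein of plasma, 16.71 to 17.31 with an SD of 0.21. TPT1, a translationally controlled protein of most cells, had 16.97 ± 0.44, and LOC511240 had 16.94 ± 0.12. AKR1C4 and TPT1 shared the CO 3 peak, with 17.80 and 17.93 there, whereas LOC511240 was lowest on CO 3, at 16.69. A second probe set of TPT1 did not share it, with a mean of 16.59 ± 0.15 and its lowest value, 16.38, on CO 3.

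**Figure D1:**
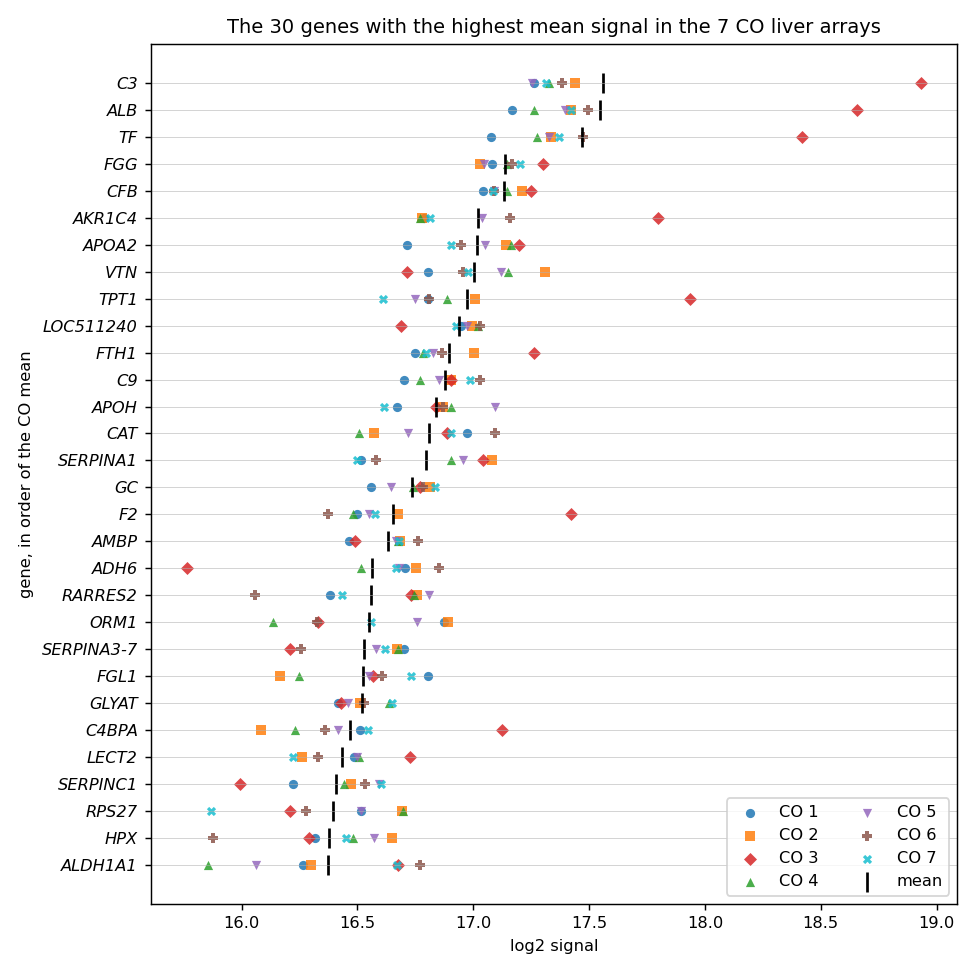
Log2 signal (horizontal axis) of the 30 genes with the highest CO mean, 1 symbol per CO array and a black bar at the mean. CO 3 (red diamonds) lies apart on the right for C3, ALB, TF, AKR1C4, TPT1 and F2 and on the left for ADH6, while most other genes keep all 7 arrays close together.

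From rank 11 to rank 30 the means went from 16.90 for ferritin heavy chain (FTH1), which stores iron, down to 16.37 for the retinal dehydrogenase ALDH1A1. Complement was represented by C9 (16.88 ± 0.12), which forms the membrane pore, and by the inhibitor C4BPA (16.47 ± 0.33). Protease inhibitors were SERPINA1, the elastase inhibitor (16.80 ± 0.26), AMBP, the precursor of bikunin (16.63 ± 0.11), and antithrombin, SERPINC1 (16.41 ± 0.22). Carriers were GC, which binds vitamin D (16.74 ± 0.10), and hemopexin, HPX, which binds heme (16.38 ± 0.26). Prothrombin, F2, lay between 16.37 and 16.68 on 6 arrays and at 17.42 on CO 3. The acute phase proteins ORM1 (16.55 ± 0.30) and SERPINA3-7 (16.53 ± 0.21) also stood here.

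Enzymes were fewer at this level. Catalase (CAT), which breaks down hydrogen peroxide, had 16.81 ± 0.21, the alcohol dehydrogenase ADH6 16.56 ± 0.37 and glycine N-acyltransferase (GLYAT), which conjugates benzoate, 16.52 ± 0.10. ADH6 lay between 16.51 and 16.85 on 6 arrays and at 15.77 on CO 3. The ribosomal protein RPS27 (16.40 ± 0.30) was the only ribosomal member of the 30. The remaining members were apolipoprotein H (APOH), chemerin (RARRES2), FGL1 and LECT2, all secreted, at 16.84, 16.56, 16.52 and 16.43.

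Of the 10 highest genes 7, of the 30 highest 19 and of the 100 highest 38 belonged to 6 lists of plasma proteins, which cover carriers, apolipoproteins, acute phase proteins, protease inhibitors, coagulation and complement. The first gene was 2.28-fold above the thirtieth, and the next one outside, the glutathione transferase GSTA2, had 16.37 like the last one inside. Among the probe sets themselves, 6 of the 30 and 17 of the 100 highest have no single gene symbol in the annotation used here and are not ranked, among them 1 with a mean of 17.63 ± 0.46, above C3.

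The signal was concentrated in few genes. The 10 highest genes held 5.25% ± 1.4 (SD) of the signal of all ranked genes, the 20 highest 8.97% ± 1.60, the 50 highest 17.4% ± 1.61, the 100 highest 27.4% ± 1.68 and the 500 highest 58.1% ± 0.92. C3 alone held 0.720% ± 0.446 and ALB 0.688% ± 0.331. The share of the 10 highest genes was 8.38% on CO 3 and 4.40% to 5.04% on the other arrays, so that without CO 3 it was 4.73% ± 0.23. Without CO 3 the 20 highest genes held 8.38% ± 0.35 and the 50 highest 16.8% ± 0.45. Likewise the share of the 100 highest genes was 31.1% on CO 3, and 26.8% ± 0.43 without it. On each array, between 280 and 330 genes held 50% of the signal.

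**Figure D2:**
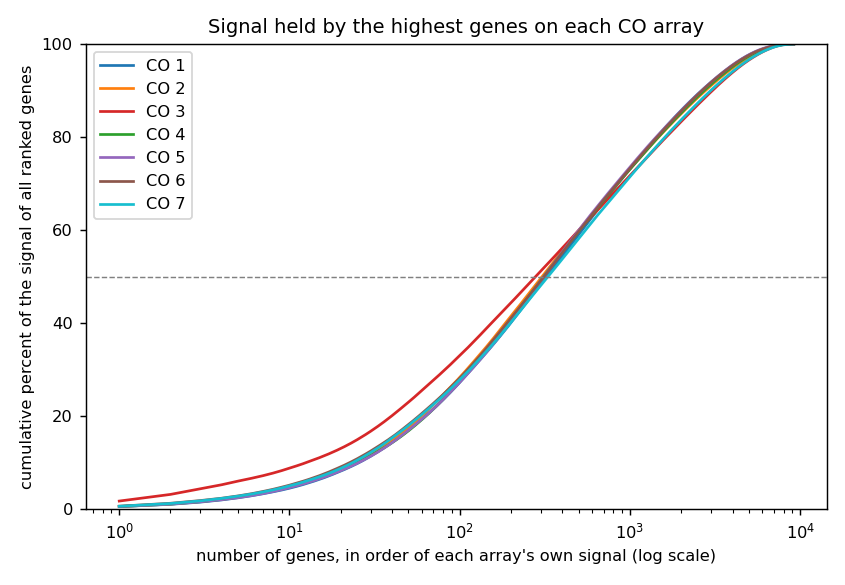
Cumulative percent of the signal of all ranked genes (vertical axis) against the number of genes in order of each array's own signal (horizontal axis, log scale), 1 line per CO array. The dashed line marks 50%, which the arrays reach between 280 and 330 genes, and CO 3 runs above the other 6 arrays over the first genes.

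Each array's own 100 highest genes held 28.5% ± 2.06 in the 7 CO arrays and 25.5% ± 3.39 in the 21 treated arrays. Their order does not use the CO means, but the probe set of each gene was chosen on CO, which can favour CO. The difference of 2.97 percentage points had an adjusted p = 0.0386 (exact two-sided permutation test, 1184040 splits, adjusted over 2 measures). The number of genes that hold 50% of the signal was 311 ± 16.0 in CO and 364 ± 63.5 in the treated arrays, with the same adjusted p = 0.0386 in that exact permutation test. CO 3 carried part of the difference in share, which was 2.21 points without it, with an exact permutation p = 0.130. Leaving out any 1 of CO 1 to CO 6 took both measures above the threshold (adjusted p up to 0.130 in the exact permutation test). P4T 4 and E2P4T 5 stood far from their groups, with a mean r of 0.72 and 0.45 with the other arrays of the group. On E2P4T 5 ALB was at 12.3, against 16.37 to 17.51 on the other E2P4T arrays. Kidney tubule markers held 0.029% ± 0.071 in E2P4T and 0.003% ± 0.001 without array 5. Leaving out P4T 4 and E2P4T 5 gave 3.41 points and an adjusted p = 0.00457 for both measures (exact permutation). With the mean over the probe sets of a symbol the share had an adjusted p = 0.0181 and the number of genes an adjusted p = 0.0722 (exact permutation). Over all probe sets, where no choice on CO enters, both measures had an adjusted p = 0.0609 (exact permutation). The call thus depended on which arrays and probe sets entered. In the arrays numbered 1 to 4 alone the share difference was 3.05 points (exact permutation, adjusted p = 0.204), and in those numbered 5 to 7 alone 2.86 points (exact permutation, adjusted p = 0.0273).

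The 6 plasma protein lists, with 96 of their 119 genes measured, held 15.8% ± 0.905 of the signal, in a range of 14.8% to 17.3%. Carriers, including ALB, TF and VTN, held 4.91% ± 0.497. Complement held 3.65% ± 0.536, with 4.76% on CO 3 and a mean of 3.46% without it. Protease inhibitors held 2.42% ± 0.167, coagulation proteins 1.84% ± 0.182, acute phase proteins 1.80% ± 0.339 and apolipoproteins 1.49% ± 0.202, the last led by APOA2, by APOC3, an inhibitor of lipoprotein lipase (16.18 ± 0.35), and by APOE, a receptor ligand of lipoprotein remnants (15.88 ± 0.41). All 24 lists of functions together, with 592 of 813 genes measured, held 40.6% ± 1.11. None of the 26 transcripts of the mitochondrial genome on its list was among the ranked genes.

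The largest share of any single list was that of the cytosolic ribosomal proteins, with 7.70% ± 1.16 over 63 measured genes. They held 6.21% on CO 7 and 6.51% on CO 6 and up to 9.07% on CO 4. RPL13A and RPS24 had 16.15 ± 0.46 and 16.15 ± 0.41, with their lowest values on CO 6 and CO 7, where they lay at 15.44 to 15.72 against 16.28 to 16.55 on CO 1 to CO 5. The elongation factor EEF1A1 ran the other way, with its highest values, 16.66 and 16.45, on CO 6 and CO 7. The same 2 arrays had the lowest difference between the 3' and 5' control probe sets of GAPDH, a measure of transcript integrity and labelling, at 2.31 and 3.09 on the log2 scale against 5.11 to 7.28 on the others, and its part in these levels was not tested.

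Metabolic lists each held a few percent. Amino acid and urea metabolism held 2.46% ± 0.241, led by CPS1, which commits ammonia to the urea cycle (16.35 ± 0.17), AHCY, which clears S-adenosylhomocysteine (16.26 ± 0.27), and ASS1, which makes argininosuccinate (16.08 ± 0.25). Fatty acid and ketone metabolism held 1.78% ± 0.204, with FABP1, the fatty acid binding protein of liver (16.14 ± 0.35), ECHS1, an enzyme of beta-oxidation (16.04 ± 0.50), and ACSL5, which activates long-chain fatty acids (15.29 ± 0.34). Glucose and propionate metabolism held 1.04% ± 0.160, with SORD, sorbitol dehydrogenase, at 14.98 ± 0.29, UGP2, which makes UDP-glucose, at 14.85 ± 0.46 and KHK, the fructose kinase, at 14.39 ± 0.60.

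Cytochromes P450 and reductases held 1.30% ± 0.292, and conjugation enzymes 1.81% ± 0.189. CYP2E1, which oxidises ethanol and other small molecules, led the first list (16.18 ± 0.50), ahead of the flavin monooxygenase FMO1 (15.46 ± 0.41) and CYP3A28 (15.20 ± 0.42). Of the 19 measured P450 and reductase genes, 9 were highest on CO 6. That array was highest for 12.3% of all genes and 16.85% of the 4000 highest. The summed share of the list reached 1.83% there against 1.01% on CO 4. Iron and redox genes held 1.91% ± 0.130, respiratory chain subunits encoded in the nucleus 1.96% ± 0.335, translation factors 1.52% ± 0.137, folding and secretion factors of the endoplasmic reticulum 1.18% ± 0.285, cholesterol and bile acid genes 0.845% ± 0.115, and cytoskeleton genes and thymosins 0.744% ± 0.110. Histocompatibility genes held 0.460% ± 0.117, interferon stimulated genes 0.168% ± 0.198 and immediate early genes 0.082% ± 0.044. Cell cycle genes held 0.040% ± 0.004, of which only RRM1, MCM7 and PCNA were among the 4000 highest genes, and clock genes held 0.064% ± 0.006.

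**Figure D3:**
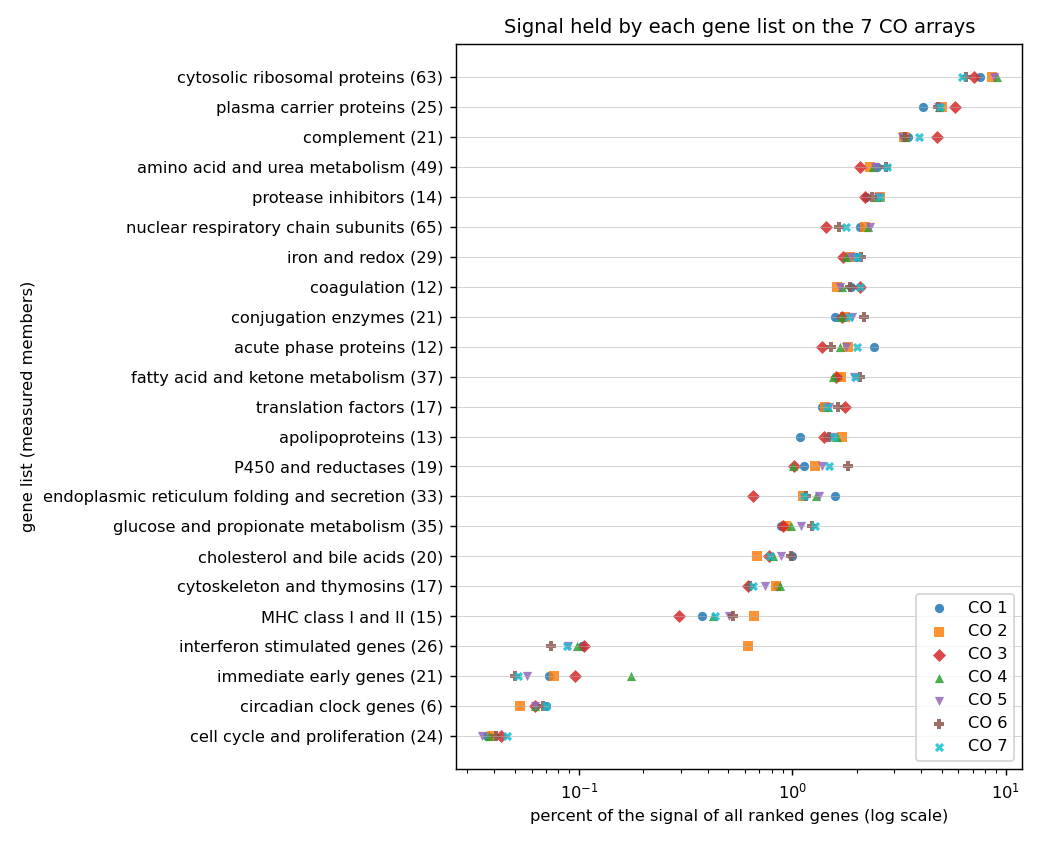
Percent of the signal of all ranked genes (horizontal axis, log scale) held by each list of functions, with the number of measured genes in brackets and 1 symbol per CO array. Ribosomal proteins, carriers and complement stand at the top, and the lists with 1 array far to the right are the interferon stimulated genes (CO 2, 0.616%) and the immediate early genes (CO 4, 0.175%).

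The tissue label was borne out by the markers of its main cell type. Of 21 hepatocyte markers 18 were measured, all within the 1000 highest genes and 15 within the 100 highest, and they held 5.61% ± 0.682 of the signal, with 7.01% on CO 3 and a mean of 5.38% without it. Markers of Kupffer cells and other macrophages held 0.297% ± 0.065, led by CD5L, a secreted protein of tissue macrophages (15.57 ± 0.25), and by the complement component C1QA (13.20 ± 0.89). Cholangiocyte markers held 0.119% ± 0.031, of which ANXA4 (14.82 ± 0.39) made up most of the level. Lymphocyte and plasma cell markers held 0.091% ± 0.025, led by the immunoglobulin chain IGHM (13.32 ± 1.00), endothelial markers 0.084% ± 0.024, led by the scavenger receptor STAB1 (12.20 ± 0.69), and stellate cell and matrix markers 0.057% ± 0.009, led by MGP (11.67 ± 0.37).

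Cells from outside the liver left little signal. Markers of neutrophils held 0.011%, of adipocytes and skin 0.010%, of red blood cells 0.004% and of kidney tubule 0.003%. The hemoglobin chain HBB was at 4.78 on CO 1 and at 7.15 to 9.58 on the other arrays. Muscle markers held 0.036% ± 0.006, of which the myosin chain MYH7 had 12.94 ± 0.24 on all 7 arrays while the muscle protein MB had 6.84 ± 1.59. Other probe sets of MYH7 had means of only 5.5 ± 1.5 and 5.5 ± 2.3, so its level rests on the probe set chosen. In such tissue fewer cells of a type and less RNA per cell cannot be told apart.

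The spread between CO arrays depended on the signal. Its median SD was 0.348 for the 100 highest genes and 0.504 up to rank 1000, and stayed between 0.479 and 0.541 down to rank 6000, below which it rose to 1.01 and then 1.53. The SD of each gene was therefore divided by the median SD of the 100 genes ranked on each side of it (SD ratio), and genes were compared in the upper range, ranks 1 to 1000, and in the middle range, down to rank 4000, with mean log2 signals of 12.36 and 9.78 at the lower ends. The SD ratio was at least 2 for 26 of the 1000 upper genes (2.6%) and for 65 of the 3000 middle genes (2.17%). These genes were picked for their spread, so their values are given as a description.

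**Figure D4:**
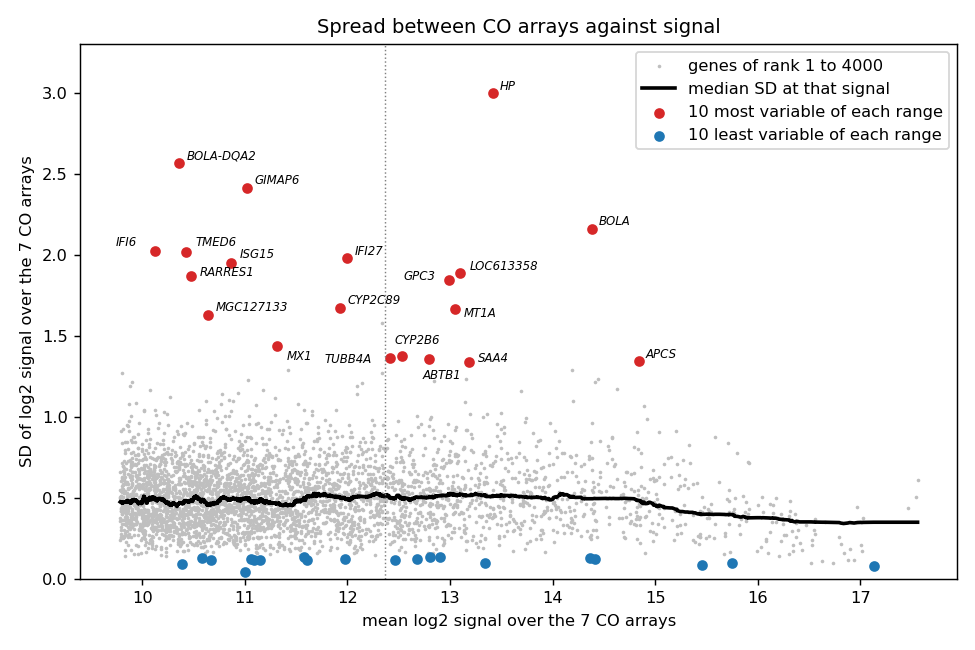
SD of the log2 signal over the 7 CO arrays (vertical axis) against the mean log2 signal (horizontal axis) for the 4000 highest genes, with the running median SD as a line and a dotted line at rank 1000. The most variable genes of each range (red, named) lie far above the line, HP highest with an SD of 3.00, and the least variable (blue) lie near 0.1.

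Haptoglobin (HP), which binds free hemoglobin and is the leading acute phase protein of cattle, was the most variable gene of the upper range, with an SD ratio of 5.86. Its log2 signal was 16.79, 14.40, 10.52, 12.92, 13.91, 8.71 and 16.65 on CO 1 to CO 7, a 271-fold range. On CO 1 and CO 7 it was as high as the 30 highest genes, and on CO 6 it was lower than the genes of rank 4000. No setting tried here brought its SD ratio below 4.59.

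Further acute phase genes varied as well. Of the 12 measured acute phase proteins 5 had an SD ratio of at least 2 (beside 2.6% of upper and 2.17% of middle genes), namely HP, SAA4, a constitutive serum amyloid A (2.61, log2 signal 11.12 on CO 6 to 14.87 on CO 1), APCS, serum amyloid P (2.78, 12.91 on CO 3 to 16.23 on CO 6), SAA3 and LBP, the last 2 named after their values were seen. Of the 12 members 8 were highest on CO 1, the array that was highest for 10.4% of all genes and 15.3% of the 4000 highest. ORM1, SERPINA3-7 and CRP, the C-reactive protein (16.23 ± 0.23), had the highest levels of the list and SD ratios of only 0.85, 0.59 and 0.64. HSPA5, the main chaperone of the endoplasmic reticulum, was also highest on CO 1, at 15.75 against 14.09 to 15.09 elsewhere, and 14 of the 33 genes of its list were highest there.

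Metallothioneins, which bind zinc and copper, gave 2 of the 10 most variable upper genes. LOC613358, listed in RefSeq also as MT1E, went from 10.01 on CO 6 to 14.93 on CO 4 with a median of 13.86, and MT1A from 10.25 on CO 6 to 15.07 on CO 1 with a median of 13.54. Both were at 12.35 or lower on CO 3, CO 5 and CO 6 and at 13.54 or higher on the other 4 arrays, so both genes divided the arrays in the same way. They are close paralogs, and their probe sets may share targets.

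The class I histocompatibility gene BOLA belongs to a family of similar genes that present peptides to T cells. It lay between 13.98 and 16.35 on 6 arrays and at 9.91 on CO 3. Its SD ratio was 4.38, or 2.50 without CO 3. Low values of BOLA also occurred in each treated group, down to 8.16 in E2T, 8.89 in P4T and 7.39 in E2P4T. In the middle range the class II gene BOLA-DQA2 ranked first with an SD ratio of 5.46. It was at 6.42 on CO 5 and 7.10 on CO 6 and between 10.60 and 12.72 on the other 5 arrays, with no value in between. On the probe sets chosen their partners held steady. B2M, the light chain of class I, had 16.30 ± 0.15 (SD ratio 0.42), and the class II chain BOLA-DRA 12.47 ± 0.36 (0.73). Other probe sets of B2M varied more, with means of 14.61 and 15.06 and SDs of 0.595 and 0.440. Both were lowest on CO 3, at 13.92 and 14.17, so the steadiness of B2M rests on the probe set chosen.

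Several other genes were low on 1 or a few arrays. GIMAP6, a GTPase of lymphocytes, was at 5.73 on CO 4 and between 11.04 and 12.51 elsewhere, and its SD ratio of 4.87 became 1.28 without CO 4. Other probe sets of GIMAP6, at lower means of 8.11 and 7.96, did not fall in this way. They were at 7.545 and 7.884 on CO 4, with highest values of 8.655 and 8.393, so the fall is that of the probe set chosen. The secretory pathway gene TMED6 went from 6.80 on CO 3 to 13.05 on CO 6 (SD ratio 4.21), and RARRES1, a retinoic acid responder gene, from 6.98 on CO 3 to 12.68 on CO 7 (3.89). GPC3, a cell surface proteoglycan, went from 9.92 on CO 3 to 14.99 on CO 7 (3.51). The last 3 genes were all lowest on CO 3 and highest on CO 6 or CO 7, and without CO 3 their SD ratios were 3.06, 2.72 and 3.11.

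**Figure D5:**
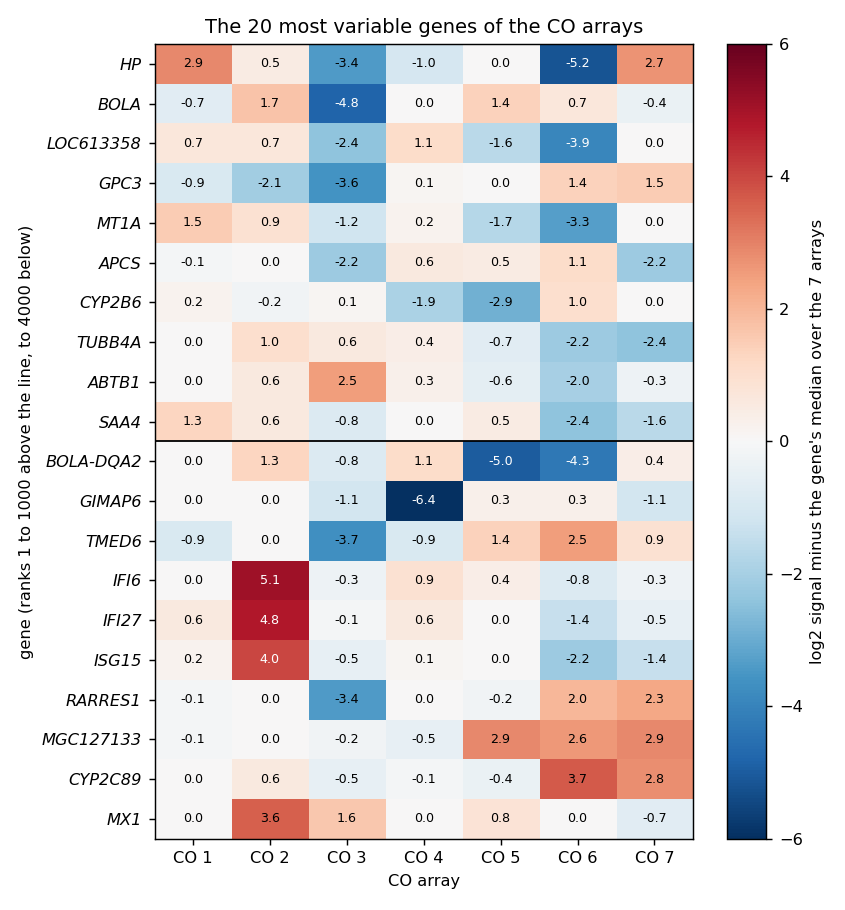
Log2 signal of the 20 most variable genes minus each gene's median over the 7 CO arrays (colour and numbers), 1 column per array, with the upper range above the line and the middle range below it. Single dark cells show genes with 1 array far from the others (GIMAP6 on CO 4, BOLA on CO 3, the interferon stimulated genes on CO 2). HP and the metallothioneins instead vary over all columns.

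CO 2 was set apart by the interferon stimulated genes, which cells turn on against viruses. IFI6 was at 14.53 on CO 2 and between 8.60 and 10.31 on the other 6 arrays, IFI27 at 16.21 against a median of 11.41, ISG15, a ubiquitin-like modifier, at 14.82 against 8.68 to 10.99, and MX1, a GTPase that blocks viral replication, at 14.15 against 9.89 to 12.12. On CO 2 they were 38.6-fold, 27.8-fold, 18.6-fold and 12-fold above the median of the others, and none of the other 6 arrays reached it. Of the 26 measured members of the list 19 were highest on CO 2, the array that was highest for 12.9% of all genes. Without CO 2 the SD ratios of these 4 genes fell from 4.10, 4.01, 3.98 and 3.09 to 1.13, 1.56, 1.94 and 1.56.

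The rest of the interferon list was mixed on CO 2. Of the members named after their values were seen, XAF1, IFI44 and USP18 were 5.41-fold, 5.71-fold and 3.74-fold above the median of the other arrays, whereas TAP1, IFI35 and TRIM25 were 1.31-fold, 1.34-fold and 1.37-fold above it. STAT2, which carries the signal of the receptor, was at 0.67 of that median, and OAS1X and MX2, of low signal, were at 0.248 and 0.311 of it. Of the 12 measured macrophage markers 9 were also highest on CO 2, among them C1QA at 14.37 and C1QB at 13.31, as were 8 of 17 lymphocyte and 7 of 15 endothelial markers. The summed share was 0.216% to 0.423% for the macrophage markers over the 7 arrays, and the part of other cell types in the interferon pattern was not tested.

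Of the 18 P450 and reductase genes among the 4000 highest genes, 3 had an SD ratio of at least 2 (beside 2.6% of upper and 2.17% of middle genes). CYP2B6, a target of the nuclear receptors for foreign compounds, went from 10.15 on CO 5 to 14.06 on CO 6 with a median of 13.07 (SD ratio 2.78, and 1.87 without CO 5). CYP2C89 was at 14.75 on CO 6 and 13.85 on CO 7 and between 10.56 and 11.64 on the other 5 arrays. CYP1A2, which oxidises caffeine and lies just outside the 10 middle genes with an SD ratio of 3.07, was likewise at 14.81 and 14.24 on CO 6 and CO 7 and between 10.69 and 12.26 elsewhere. For CYP2C89 and CYP1A2 the arrays CO 6 and CO 7 did not overlap with the rest. The share of all genes that split in this way is not given here, so the split is not read as a trait of P450 genes.

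CO 6 and CO 7 were also the arrays with the lowest GAPDH difference. With the GAPDH difference removed by a straight line, the SD ratio of CYP2C89 fell from 3.32 to 1.67 and that of TUBB4A, a tubulin of the cytoskeleton, from 2.74 to 1.22. The planned measure was instead the mean of the GAPDH and actin differences. With that mean removed, all 20 most variable genes kept an SD ratio of at least 2, and TUBB4A rose to 3.19. The actin difference was highest on CO 6, at 5.66 against 0.66 to 3.42 on the other CO arrays. The actin control probe sets, unlike the probe set ranked for the ACTB gene, gave low signals, at 6.59 to 9.12 for the 3' one. TUBB4A had its lowest values, 10.69 and 10.44, on CO 6 and CO 7, and ABTB1 went from 10.71 on CO 6 to 15.20 on CO 3. Over the 7 arrays, Pearson's r with the GAPDH difference was 0.8 or more in size for 7 of the 20 most variable genes (35%), beside 15.4% of the 4000 highest genes. These genes were picked for their spread over the same arrays, so this is a description with no test.

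MGC127133 separated the arrays by their numbers. It was at 9.08 to 9.56 on CO 1 to CO 4 and at 12.13 to 12.51 on CO 5 to CO 7, and its SD ratio of 3.56 fell to 0.49 once the means of these numbers were removed. The same split was seen in groups that the ranking did not use. Numbers 1 to 4 and 5 to 7 lay at 8.75 to 9.59 and 11.92 to 12.88 in E2T, at 8.87 to 9.58 and 11.86 to 12.54 in P4T, and at 8.73 to 9.82 and 12.21 to 12.56 in E2P4T, where array 5, at 6.07, was set aside.

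In CO, 493 of the 4000 highest genes (12.3%) did not overlap between arrays 1 to 4 and 5 to 7. The share was 8.70% in E2T. It was 24.2% in P4T and 30.6% in E2P4T with P4T 4 and E2P4T 5 left out, which leaves fewer arrays to overlap. Over all 4 groups, with the same arrays left out, 53 genes (1.32% of the 4000) split the same way. Among them, named after their values were seen, were NFIB, a transcription factor (11.23 to 12.02 on CO 1 to CO 4 and 9.32 to 10.12 on CO 5 to CO 7), and, in the other direction, SDHA, of succinate dehydrogenase (12.63 to 13.18 and 13.70 to 13.88), and the aldehyde dehydrogenase ALDH9A1 (13.35 to 13.71 and 14.47 to 14.99). What the numbers stand for is not given in the labels. In CO the GAPDH difference did not overlap between these numbers either, so the number of an array and its GAPDH difference cannot be told apart there. In the other groups, with all arrays, the GAPDH difference overlapped between numbers 1 to 4 and 5 to 7. It was 3.56 to 6.45 and 4.12 to 4.65 in E2T, 4.22 to 8.48 and 3.88 to 4.93 in P4T, and 3.57 to 6.40 and 3.21 to 5.02 in E2P4T. Its part in the split was not tested.

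The steadiest genes were of mixed function. In the upper range PPM1A, a protein phosphatase, had the lowest SD ratio, 0.19, with log2 signals of 13.19 to 13.45. It was followed by CFB (0.22), the ribosomal protein RPL23 (0.22, 15.34 to 15.57), the transcription factor KLF15 (0.23, 12.28 to 12.61) and LOC521656 (0.24). OXA1L, which inserts proteins into the inner mitochondrial membrane, the hepatocyte receptor ASGR1, the vesicle coat protein SEC24C, the thyroid hormone deiodinase DIO1 and N-cadherin (CDH2) had ratios of 0.25 to 0.26. GLYAT, just outside, had 0.27.

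In the middle range HNRNPAB, an RNA binding protein, stayed between 10.97 and 11.07 on all 7 arrays, an SD of 0.04 and an SD ratio of 0.08. ELAC1, an RNase of tRNA maturation, had 0.20 and the histone deacetylase HDAC1 0.23. FIP1L1, CCDC32, C6H4orf19, the export receptor XPO7, the endosomal GTPase RAB5C, the mitochondrial tRNA synthetase TARS2 and the chaperonin subunit CCT3 followed with 0.24 to 0.27, and TPD52L2, just outside, had 0.28. Steadiness here is that of the probe set chosen. Another probe set of FIP1L1, with a mean of 10.76, had an SD of 0.44, and another of DIO1, with a mean of 8.76, had 0.83. All 20 least variable genes stayed below an SD ratio of 1 in every setting tried, whereas the common reference gene ACTB ranged from 14.94 to 16.29, with an SD ratio of 1.24.

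The arrays of the treated groups, which the ranking did not use, showed how far this spread was shared. In E2T, 6 of the 10 most variable upper genes again had an SD ratio of at least 2, against 5.60% of all upper genes there. In P4T without array 4 the number was 9 (against 6.40%) and in E2P4T without array 5 it was 10 (against 5.90%), both arrays having stood far from their groups. With all 7 arrays the numbers were 6 in P4T (against 7.00%) and 8 in E2P4T (against 19.6%). For the middle genes, with the same arrays left out, the numbers were 8 (4.03%), 9 (4.40%) and 8 (5.37%) of 10, and with all arrays 6 (6.33%) in P4T and 8 (9.90%) in E2P4T. Among the least variable genes an SD ratio below 1 was found for 10 of the 10 upper genes in the E2T arrays, for 7 in the P4T arrays and for 8 in the E2P4T arrays (without the same 2 arrays), where 49.7% to 49.9% of all upper genes were below it. With all 7 arrays the numbers were 10 in P4T and 4 in E2P4T. Since a cow entered several groups, these arrays are not independent of the CO arrays.

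HP shows the point. Its log2 signal was at 7.69 to 12.8 in E2T and reached 16.7 on P4T 2 and 16.6 on E2P4T 2. From the highest 100 genes down to rank 1000 the median SD was 0.504 in CO, or 0.422 without CO 3, beside 0.355 in E2T, 0.477 in P4T (0.262 without array 4) and 0.496 in E2P4T (0.287 without array 5). For the 100 highest genes it was 0.348 in CO and 1.44 in E2P4T, or 0.304 there without array 5. Differences in spread between groups were not tested.

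No single gene separated CO from the treated groups at the threshold. Of 18013 probe sets tested with limma for CO against the average of the treated groups, 0 passed an adjusted p of 0.05 (0%), with a lowest adjusted p = 0.878, and 950 (5.27%) had an unadjusted p under 0.05. With array weights 0 passed and 3107 (17.2%) had such a p. Without the outlying arrays P4T 4 and E2P4T 5 the numbers were 0 and 2783 (15.45%). Of the 30 highest genes 0 passed, and 0 had an unadjusted p under 0.05 in limma, whereas 18 had one without P4T 4 and E2P4T 5 and 7 had one with array weights, again with 0 passing the adjusted threshold. Their differences, treated minus CO, went from -0.80 for C4BPA to -0.09 for RPS27 with a median of -0.51, beside a median of -0.05 over all probe sets and a median standard error of 0.43. These genes were chosen for being high in CO, so neither the sign of their differences nor their counts of unadjusted p-values are a result. HP had a difference of -2.71 ± 1.02 (SE), with an adjusted p = 0.878 in limma.

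Beside the CO share of 15.8%, the 6 plasma protein lists held 13.5% ± 0.9 (E2T), 13.4% ± 1.3 (P4T without array 4) and 13.7% ± 1.6 (E2P4T without array 5), values for which no test was made. With all 7 arrays they held 14.3% ± 2.6 in P4T and 11.9% ± 4.9 in E2P4T.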

How the data were processed

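Liver mRNA, isolated with oligo(dT) beads from snap-frozen percutaneous biopsies, was labelled as biotinylated cRNA and hybridized by the authors to the Affymetrix bovine array. The deposited values are linear signal intensities, made with MAS5 per the submitters' processing notes and scaled by array. The authors log-transformed the genes flagged present and fitted a mixed model for the Latin square, which needs cow and period. Detection calls were not analysed here.

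Here, log2 intensities of 24128 probe sets (112 of them controls) were used without further scaling. Of the 24016 others, 13292 had exactly 1 gene symbol in the array's annotation, 86 several and 10638 none, and only the first were named. RefSeq held 13263 of their gene identifiers and 0 symbols were updated. Samples were grouped by their labels. Shares are sums of linear signals over the sum of the 9155 ranked genes. Named genes are the 30 highest, the 10 most and 10 least variable of each range, and of each list the 3 highest members and the member with the highest SD ratio. The members, the 24 lists of functions and 11 of cell types were chosen with earlier results of these data known, and a list of hormone receptors was added after seeing the data. For CO against the treated groups, limma 3.58.1 in R 4.3.3 (lmFit, eBayes with trend, Benjamini-Hochberg) was fitted to all 28 arrays on the 18013 probe sets with the highest maxima. Shares were compared by exact permutation over arrays. The limma test and the SD ratio were tested on simulated data. Python 3.11.15, numpy 2.4.6, pandas 2.3.3, scipy 1.17.1 and matplotlib 3.10.9 were used. The alternatives were quantile normalization, median centring, an added signal of 50, other windows, the median absolute deviation, the mean over probe sets, all probe sets, RNA quality residuals, no filter, no trend, array weights, a replicate block and leaving out arrays. No gene among the most variable had a second probe set high enough for the planned comparison.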

Additional observations from a re-analysis of the deposited data

Results flagged for a closer look

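In groups of 7 arrays, values with 1 array far from the others by Dixon's criterion are listed here, and chance gives about 1 such value in 20 where genes were not picked for their spread. Of 69 named genes 13 were found this way, 5 of them (BOLA, GIMAP6, IFI6, IFI27 and ISG15) picked as most variable on the same arrays, for which that rate does not hold. CO 3 gave 9 of them, with log2 signals of 18.93 for C3, 18.66 for ALB, 18.42 for TF, 17.80 for AKR1C4, 17.93 for TPT1 and 17.42 for F2 as the highest values, and of 16.69 for LOC511240, 15.77 for ADH6 and 9.91 for BOLA as the lowest. On the same array the 10, 20, 50 and 100 highest genes held 8.38%, 12.5%, 21% and 31.1% of the signal, hepatocyte markers held 7.01%, and the spiked controls had a mean log2 signal of 16.26. The spiked controls and the highest genes thus stood out on 1 array, and the array and its biopsy cannot be told apart here.

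On CO 2 the interferon stimulated genes IFI6, IFI27 and ISG15 had log2 signals of 14.53, 16.21 and 14.82, and their whole list held 0.616% of the signal against 0.074% to 0.106% on the other arrays.

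On CO 4 GIMAP6 had a log2 signal of 5.73, and the immediate early genes held 0.175% of the signal. On CO 7 markers of kidney tubule held 0.00808% of the signal, led by SLC34A1 at rank 7129.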

How the results depend on the processing

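The precision is limited by 7 arrays a group, by the missing cow and period, and by signals near background below rank 6000. Between 24 and 29 of the 30 highest genes remained under each alternative. The 100 highest genes held 25.1% with quantile normalization, 31.4% with the mean over probe sets and 21% over all probe sets, and the 6 plasma protein lists 14.6% with quantile normalization and 10.6% over all probe sets, where the sum includes probe sets without a symbol. CO minus treated, the share of the 100 highest genes was -0.072 points with quantile normalization, which by construction gives all arrays nearly the same distribution and so says nothing about the groups here, 2.40 over all probe sets, 3.05 in arrays 1 to 4 alone, 3.41 without P4T 4 and E2P4T 5, and 2.21 to 3.17 with each CO array left out. The number of genes that hold 50% of the signal differed by 4.52 with quantile normalization, by -45.7 with the mean over probe sets, by -92.0 over all probe sets, by -45.8 in arrays 1 to 4 alone, by -62.0 in arrays 5 to 7 alone, and by -55.9 to -47.6 with each CO array left out. Of the 20 most variable genes 12 had an SD ratio of at least 2 with the median absolute deviation, and 16 to 20 in the other settings. The analyses within array numbers and with GAPDH residuals were chosen after seeing the data. The limma test of CO against the treated groups called 0 probe sets in every alternative, and with a replicate block 0 (1157 with an unadjusted p under 0.05). Same-numbered arrays of different groups correlated at -0.30 to 0.78, with 23 of 42 pairs above 0.1. A pairing of single arrays by number was thus not shown and not tested, though some genes split between numbers 1 to 4 and 5 to 7 in every group. Quantile normalization and median centring moved the median of all probe sets from -0.05 to 0.01 and 0.09, and that of the 30 highest genes from -0.51 to -0.23 and -0.36.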

Other observations

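Receptors for the hormones of the study and for others were described with a list added after the data had been seen, of which 12 of 18 genes were measured. The membrane progesterone receptor component PGRMC1 ranked highest, at place 462, with a log2 signal of 13.53 ± 0.90 (SD, n = 7) and values of 12.14 on CO 3 to 14.85 on CO 6. The retinoid X receptor RXRA, the common partner of nuclear receptors, had 12.98 ± 0.34, the thyroid hormone receptor THRA 10.88 ± 0.63 and the glucocorticoid receptor NR3C1 10.10 ± 0.36. Receptors of growth hormone (GHR), prolactin (PRLR) and insulin (INSR) had 9.03 ± 1.14, 9.46 ± 0.31 and 8.29 ± 0.68. GHR was lowest on CO 1, at 6.90, and at 8.09 to 10.11 elsewhere. The nuclear receptors of the sex steroids lay far down, with 7.19 ± 0.68 for PGR, 6.21 ± 1.58 for ESR2 and 4.76 ± 1.42 for ESR1, in the range where the median SD between arrays was 1.01 to 1.53. A low signal of a probe set is not a measure of the amount of receptor.

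The immediate early genes, which cells switch on within minutes of a stimulus, were highest on CO 4 for 12 of 21 measured members, the array that was highest for 9.12% of all genes. Of those named here after their values were seen, FOS was at 12.18 on CO 4 and at 2.77 to 8.05 on the others, EGR1 at 12.03 against 5.08 to 9.77, and NR4A1 at 10.24 against 4.25 to 7.78. JUN was at 11.93 against 9.71 to 10.60. JUND, the highest member of the list, was also highest on CO 4, at 14.39, close to 14.13 on CO 3 and above 11.64 on CO 7.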
